A study of Mus musculus with 6 samples.

Results

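The pyruvate dehydrogenase kinases and phosphatases are encoded by 7 mouse genes, the kinase genes Pdk1, Pdk2, Pdk3 and Pdk4, the catalytic phosphatase genes Pdp1 and Pdp2, and the gene of the phosphatase regulatory subunit, Pdpr. The genes were chosen by name, with earlier results of these data known, and found by their NCBI Gene identifiers among the 27179 genes of the count tables. All 7 had enough counts to be among the 14069 genes tested. The questions were which kinase made up the Pdk mRNA of each cell line, how that composition differed between the lines, and how kinase mRNA stood against phosphatase mRNA.

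The pyruvate dehydrogenase complex sits in the mitochondrial matrix and converts pyruvate, the end product of glycolysis, into acetyl-CoA. The kinases phosphorylate the E1 alpha subunit of the complex and switch it off, so that more pyruvate is left for lactate, and the phosphatases remove the phosphate and switch it on again. Pdk1 is a known target of the hypoxia-inducible factor, Pdk4 is known for its induction by fasting through nuclear receptors and FOXO factors, and PDPR is the regulatory subunit of the PDP1 holoenzyme. Only mRNA was measured, and neither kinase protein nor phosphorylation of the complex can be read from these values.

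mRNA-seq was done on 6 libraries, 2 per line, from 3 mouse embryonic fibroblast (MEF) lines, with between 25957409 and 36106949 counts each. The CPN-/- line carries knockouts of Cry1, Cry2, Per1, Per2, Nr1d1 and Nr1d2, the repressor genes of the circadian clock, and the other lines, CPN-/- CRY1 and CPN-/- CRY2, carry the same 6 knockouts plus exogenous CRY1 or CRY2. The exogenous genes were under a viral promoter outside the clock's feedback, and each of these lines was grown from a selected colony, so that a difference between lines is also a difference between single clones. The libraries of a line were separate RNA preparations of untreated cells, so the p-values measure the spread between preparations of a line and not between independent clones.

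The labels were checked against the targeted genes and the cell type. Cry1 was at 165 and 190 CPM (counts relative to the TMM-scaled library size) in CPN-/- CRY1, at 125 and 115 CPM in CPN-/- and at 51.0 and 48.3 CPM in CPN-/- CRY2. Cry2 was at 349 and 351 CPM in CPN-/- CRY2, at 136 and 129 CPM in CPN-/- and at 50.7 and 51.7 CPM in CPN-/- CRY1. Each exogenous gene was therefore highest in the line that carries it, but reads were counted from the knocked-out genes in every line, since counts per gene do not separate disrupted, endogenous and exogenous transcripts. Of 12 fibroblast markers, between 9 and 10 per line had at least 10 counts in both libraries, summing to between 11220 and 17900 CPM, whereas Thy1 and Lum were at or near 0 in every line and Dcn was at 0.166 and 0.032 CPM for CPN-/- CRY1, with 0.723 and 0.921 in CPN-/- and 2.24 and 2.19 in CPN-/- CRY2. Of the 10 fibroblast markers tested, edgeR called 1 higher (Pdgfrb, log2 fold change 0.89) and 2 lower (Pdgfra, -1.31, and Dcn, -2.92) in CPN-/- CRY1 against CPN-/-, and 1 higher (Dcn, 1.44) in CPN-/- CRY2 against CPN-/-. Between the CRY lines 3 were lower in CPN-/- CRY1 (Pdgfra, Dcn and Col1a2). DESeq2 called 4, 1 and 6 of the 10 in these comparisons. The part of these differences in the results was not tested. The summed markers of epithelial, endothelial and adipocyte cells reached at most 1.00 CPM, those of haematopoietic cells between 1.76 and 2.17 CPM and those of skeletal muscle between 1.22 and 2.92 CPM. In bulk RNA, fewer cells that express a gene and less of its RNA per cell cannot be told apart.

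The 7 genes lie on 6 chromosomes of the mm10 (GRCm38.p6) genome. Pdk1 (NCBI Gene 228026) spans chr2:71873215-71903858 on the plus strand with a longest transcript of 5185 bases in 11 exons. Pdk2 (18604) spans chr11:95026258-95041371, Pdk3 (236900) chrX:93764616-93832150 and Pdk4 (27273) chr6:5483351-5496278, all on the minus strand and with longest transcripts of 2246, 2115 and 3484 bases. Pdp1 (381511) spans chr4:11958183-11966450 on the minus strand, with a longest transcript of 4201 bases. Pdp2 (382051) at chr8:104591472-104599026 and Pdpr (319518) at chr8:111094609-111139781 are on the plus strand of the same chromosome, with longest transcripts of 5692 and 4938 bases. No other gene's transcripts were at least 95% identical to those of any of the 7 over 150 bases or more, and the longest exact run shared between members was 29 bases, between Pdk3 and Pdk4, so that reads could be told apart by gene. Exons of Pdpr overlap a gene on the opposite strand, 9430091E24Rik, over 169 bases.

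Promoter sequences show the DNA next to the start sites of the genes that differed most and of those that carry the E-box CACGTG, the motif bound by CLOCK-BMAL1, which CRY proteins inhibit. RefSeq windows (GRCm38.p6) of 300 bases, from 250 before to 50 after a start site, were at hand for 6 of the 7 genes (not Pdp1). The stretches below run 5′ to 3′ on the gene's strand, begin 250 bases before the start site and end where an annotated exon begins, and capitals mark CACGTG. They lie at chr2:71872974-71873214 (Pdk1), chr6:5496310-5496528 (Pdk4), chr11:95041372-95041621 (Pdk2), chr8:104591222-104591450 (Pdp2) and chr8:111094495-111094608 (Pdpr).
Pdk1: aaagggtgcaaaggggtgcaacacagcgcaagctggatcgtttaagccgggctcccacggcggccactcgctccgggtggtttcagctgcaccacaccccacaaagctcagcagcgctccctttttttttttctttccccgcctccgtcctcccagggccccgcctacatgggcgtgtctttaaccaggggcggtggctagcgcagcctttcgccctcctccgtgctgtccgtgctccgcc
Pdk4: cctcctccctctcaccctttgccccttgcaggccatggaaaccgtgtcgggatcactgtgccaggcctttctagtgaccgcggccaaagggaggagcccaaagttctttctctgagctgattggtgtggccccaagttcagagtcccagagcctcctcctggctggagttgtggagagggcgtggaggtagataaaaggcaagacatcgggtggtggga
Pdk2: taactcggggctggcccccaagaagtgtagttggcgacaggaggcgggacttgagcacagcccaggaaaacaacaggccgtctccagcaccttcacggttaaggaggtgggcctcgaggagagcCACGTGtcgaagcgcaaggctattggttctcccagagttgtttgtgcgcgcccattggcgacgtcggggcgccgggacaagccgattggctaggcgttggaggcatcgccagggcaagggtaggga
Pdp2: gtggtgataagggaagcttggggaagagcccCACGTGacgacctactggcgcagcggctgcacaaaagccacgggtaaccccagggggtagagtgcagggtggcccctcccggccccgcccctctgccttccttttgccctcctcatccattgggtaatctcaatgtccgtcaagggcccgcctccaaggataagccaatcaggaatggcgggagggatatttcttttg
Pdpr: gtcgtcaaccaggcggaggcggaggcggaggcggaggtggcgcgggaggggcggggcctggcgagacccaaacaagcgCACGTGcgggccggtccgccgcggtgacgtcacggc
CACGTG was in the windows of Pdk2, Pdp2 and Pdpr, starting at -126, -219 and -172 from the start site, and in 7.15% of all 32851 promoter windows. For Pdk2 this is the start site at chr11:95041371, and the window of its other start site, at chr11:95040875, had no match. CACGTG was not in the windows of Pdk1 (at either of its annotated start sites), Pdk3 or Pdk4. That says only that these letters are not in these windows, and introns were not searched here. For Pdk1 the study describes CACGTG motifs in the first intron, and it reports BMAL1 and CRY1 binding at this gene by chromatin immunoprecipitation. From published BMAL1 binding data of MEFs with endogenous CRY, it also reports binding at the promoter regions of Pdk1 and Pdk2. ACGTG and GCGTG, the forms of the core letters of hypoxia response elements, were searched on both strands and were in 19.6% and 32.4% of all windows. GCGTG was in the windows of Pdk1 (at -78 and -2, only for the start site at chr2:71873224), Pdk3 (3 matches) and Pdk4 (at -71). ACGTG was in that of Pdk3 (at -53) and, as part of CACGTG, in the windows of Pdk2, Pdp2 and Pdpr that hold CACGTG. A match is a description of the letters and not a binding site.

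Pdk1 was lower in both CRY lines than in CPN-/-, and lowest in CPN-/- CRY1. Its mRNA level was 158 and 163 CPM in the libraries of CPN-/-, 29.4 and 27.6 CPM in those of CPN-/- CRY1, and 56.8 and 63.3 CPM in those of CPN-/- CRY2. The libraries of the 3 lines did not overlap, and the gap between lines was many times the gap within one. Against CPN-/-, the log2 fold change was -2.49 ± 0.11 (SE) for CPN-/- CRY1 (adjusted p = 8.82e-05 by edgeR's quasi-likelihood test, Benjamini-Hochberg adjusted) and -1.42 ± 0.10 for CPN-/- CRY2 (adjusted p = 0.000737, same edgeR test). The calls for Pdk1 were kept under all 16 alternatives in each comparison. Its chromosome did not move with it, since the median log2 fold change of the 1055 tested genes on chromosome 2 was 0.03 and 0.02 in these comparisons.

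Pdk4 went the other way. Its level was 36.8 and 35.3 CPM in CPN-/-, 46.7 and 49.8 CPM in CPN-/- CRY1, and 61.4 and 64.5 CPM in CPN-/- CRY2. The lines were separate in this order, so that the line with the intermediate Pdk1 level had the highest Pdk4 level. Against CPN-/-, the log2 fold change was 0.42 ± 0.10 for CPN-/- CRY1 (edgeR adjusted p = 0.0217) and 0.81 ± 0.10 for CPN-/- CRY2 (edgeR adjusted p = 0.00469). The first call was lost when any 1 of the 4 CRY-line libraries was left out and the second without either CPN-/- CRY2 library. With a library left out the log2 fold change stayed between 0.38 and 0.47 for CPN-/- CRY1 and between 0.78 and 0.84 for CPN-/- CRY2, and the adjusted p reached 0.200 and 0.0755 over all alternatives.

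Pdk2 was the kinase gene with the fewest counts, between 163 and 384 per library. Its level was 6.13 and 6.26 CPM in CPN-/-, 10.6 and 8.73 CPM in CPN-/- CRY1, and 8.38 and 9.27 CPM in CPN-/- CRY2. Both CRY lines were above CPN-/- and overlapped each other. Fold changes on the log2 scale were 0.65 ± 0.15 for CPN-/- CRY1 (edgeR adjusted p = 0.0218) and 0.51 ± 0.15 for CPN-/- CRY2 (edgeR adjusted p = 0.104), so that only the first passed the threshold. The second passed with the trend with transcript length removed (0.63, edgeR adjusted p = 0.0202). That setting called 2102 genes over all, against 937 in the main fit. Omitting any 1 library gave log2 fold changes between 0.45 and 0.59 for CPN-/- CRY2. For CPN-/- CRY1, the call was lost when any 1 of the 4 CRY-line libraries was left out, with log2 fold changes between 0.49 and 0.78 when 1 library was left out and an adjusted p of at most 0.174.

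Pdk3, the X-linked kinase gene, was lower in both CRY lines by a smaller amount than Pdk1. Its level was 92.9 and 106 CPM in CPN-/-, 75.3 and 78.8 CPM in CPN-/- CRY1, and 68.8 and 72.0 CPM in CPN-/- CRY2. All libraries of the CRY lines were below both CPN-/- libraries. On the log2 scale the fold changes were -0.37 ± 0.10 for CPN-/- CRY1 (edgeR adjusted p = 0.0424) and -0.50 ± 0.10 for CPN-/- CRY2 (edgeR adjusted p = 0.0379). They were smaller with the length trend removed, at -0.22 and -0.36. Both calls were lost when any 1 of the 4 CRY-line libraries was left out, while the log2 fold changes stayed between -0.46 and -0.26 and between -0.59 and -0.39.

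**Figure D1:**
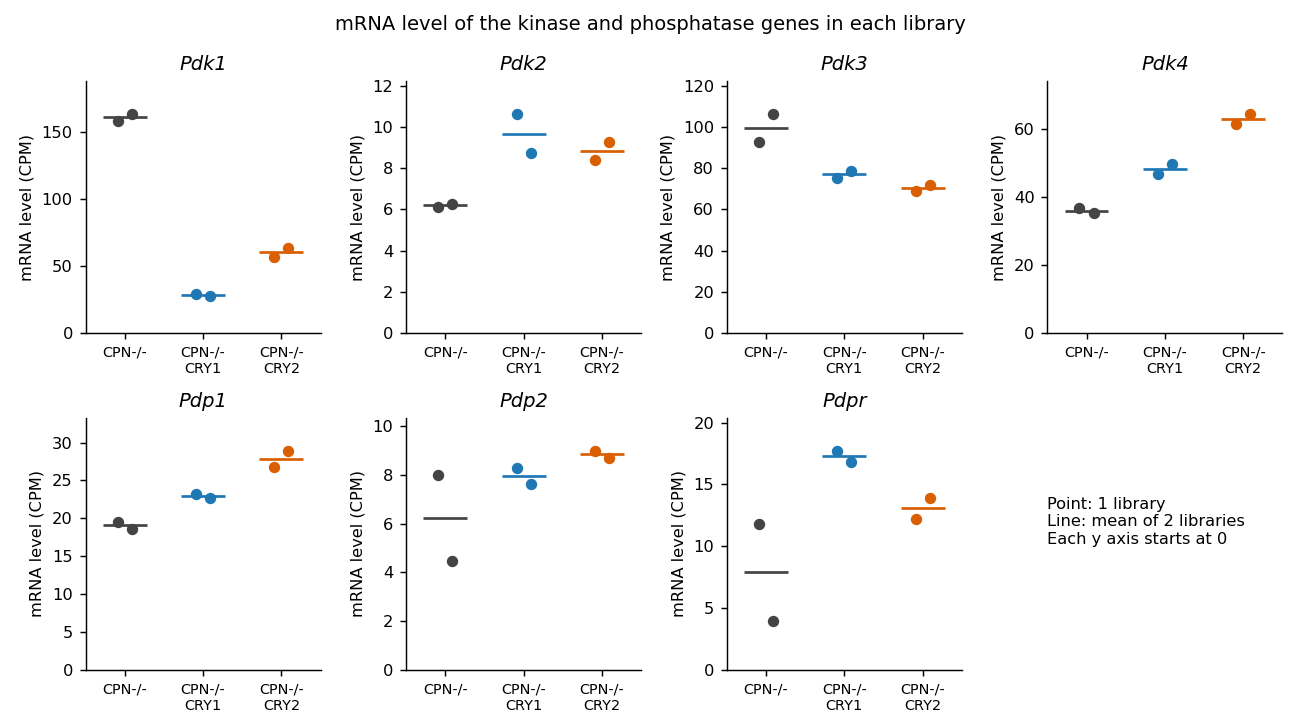
mRNA level (CPM, TMM-scaled, y axes from 0) of each gene by cell line, with a point per library and a line at the mean of the 2 libraries. Pdk1 sits at 158 and 163 CPM in CPN-/- and below 64 CPM in every library of the CRY lines, Pdk4 rises in steps from 36.8 CPM or less to 61.4 CPM or more in CPN-/- CRY2, and the CPN-/- libraries stand far apart for Pdp2 and Pdpr.

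The catalytic phosphatase gene Pdp1 was higher in CPN-/- CRY2. Its level was 19.5 and 18.6 CPM in CPN-/-, 23.2 and 22.7 CPM in CPN-/- CRY1, and 26.8 and 28.9 CPM in CPN-/- CRY2, with no overlap between lines. Relative to CPN-/-, its log2 fold change was 0.55 ± 0.10 for CPN-/- CRY2 (edgeR adjusted p = 0.0254) and 0.27 ± 0.10 for CPN-/- CRY1 (edgeR adjusted p = 0.0969). The second did not pass the threshold under any alternative that kept both CPN-/- libraries. For CPN-/- CRY2, the call was lost when any 1 of the 4 CRY-line libraries was left out, with log2 fold changes between 0.50 and 0.61.

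Pdp2, the second catalytic subunit gene, was at 7.99 and 4.45 CPM in CPN-/-, 8.27 and 7.62 CPM in CPN-/- CRY1, and 9.002 and 8.71 CPM in CPN-/- CRY2. Pdpr was at 11.8 and 3.95 CPM in CPN-/-, 17.7 and 16.8 CPM in CPN-/- CRY1, and 12.2 and 13.9 CPM in CPN-/- CRY2. The means of both genes were higher in the CRY lines, but the CPN-/- libraries disagreed with each other, and for Pdp2 those of CPN-/- overlapped those of CPN-/- CRY1. For Pdpr the log2 fold change was 1.11 ± 0.41 for CPN-/- CRY1 and 0.71 ± 0.42 for CPN-/- CRY2 (edgeR adjusted p = 0.0897 and 0.324). DESeq2's Wald test called the first (1.14, adjusted p = 0.0149). For Pdp2 it was 0.34 ± 0.25 and 0.50 ± 0.25 (edgeR adjusted p = 0.336 and 0.267).

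The library of CPN-/- that was left out decided these values. Without CPN-/- replicate 1, Pdpr had log2 fold changes of 2.13 (CPN-/- CRY1) and 1.73 (CPN-/- CRY2) and Pdp2 of 0.84 and 0.99. Without CPN-/- replicate 2, the same values were 0.56 and 0.15 for Pdpr and 0.003 and 0.16 for Pdp2. Leaving out either CPN-/- library also raised the calls over all genes in both comparisons, so that calls from these fits are no check. Between the CPN-/- libraries Pdpr differed by 1.56 on the log2 scale, more than 99.6% of the tested genes, and Pdp2 by 0.83, more than 94.5% of them. Across 12478 genes, this difference was related to transcript length (Spearman 0.66, against -0.20 and 0.27 within the other lines), and the length trend amounted to 0.22 for Pdpr and 0.32 for Pdp2. With the length trend removed, the log2 fold changes were 1.02 and 0.64 for Pdpr (edgeR adjusted p = 0.0507 and 0.251) and 0.18 and 0.36 for Pdp2 (edgeR adjusted p = 0.420 and 0.188). Over all alternatives the log2 fold changes ranged from 0.15 to 2.13 for Pdpr and from 0.003 to 0.99 for Pdp2 in these comparisons.

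**Figure D2:**
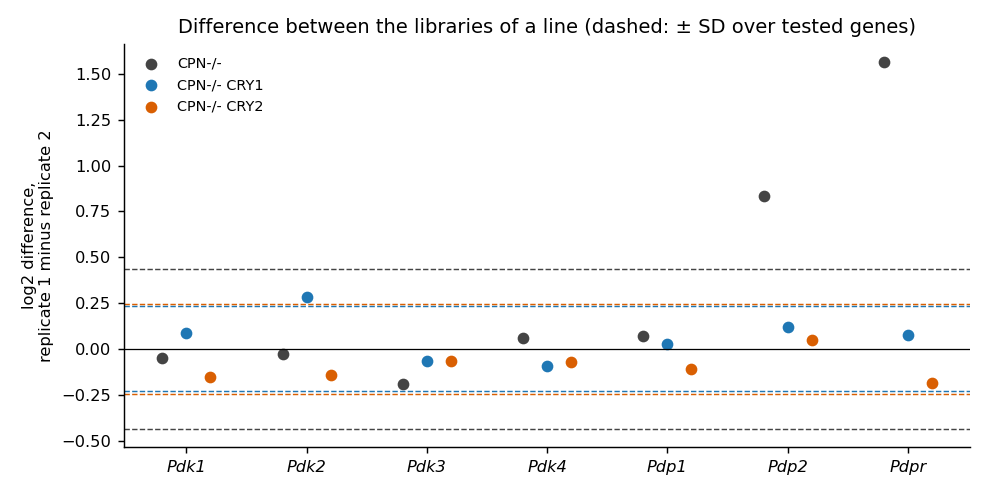
log2 difference between replicate 1 and replicate 2 of a line for each gene (y axis), with dashed lines at ± 1 SD over all tested genes (0.435 for CPN-/-, 0.232 for CPN-/- CRY1, 0.245 for CPN-/- CRY2). Pdpr at 1.56 and Pdp2 at 0.83 in CPN-/- lie outside these lines, and the other 5 genes lie inside them in CPN-/-. Pdk2 at 0.28 in CPN-/- CRY1 lies outside the lines of CPN-/- CRY1.

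Taking the genes of the family as a count, 4 of 7 passed the threshold in CPN-/- CRY1 against CPN-/- (all 4 kinases, Pdk2 and Pdk4 higher, Pdk1 and Pdk3 lower), where 24.3% of all tested genes did (11.2% higher, 13.1% lower). In CPN-/- CRY2 against CPN-/-, 4 of 7 passed (Pdk4 and Pdp1 higher, Pdk1 and Pdk3 lower), where 6.66% of all tested genes did (2.58% higher, 4.08% lower). These comparisons share the CPN-/- libraries and are not independent of each other. As the genes were chosen with earlier results of these data known, the counts are a description and not a test of the family. The libraries did not overlap for 6 and 7 of the genes, against 66.9% and 55.1% of all tested genes. The median log2 fold change of the 7 genes was 0.34 and 0.51, against -0.01 and -0.01 over all tested genes. These medians are the values of Pdp2 and Pdk2, neither called in the comparison concerned, and the genes went in both directions.

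**Figure D3:**
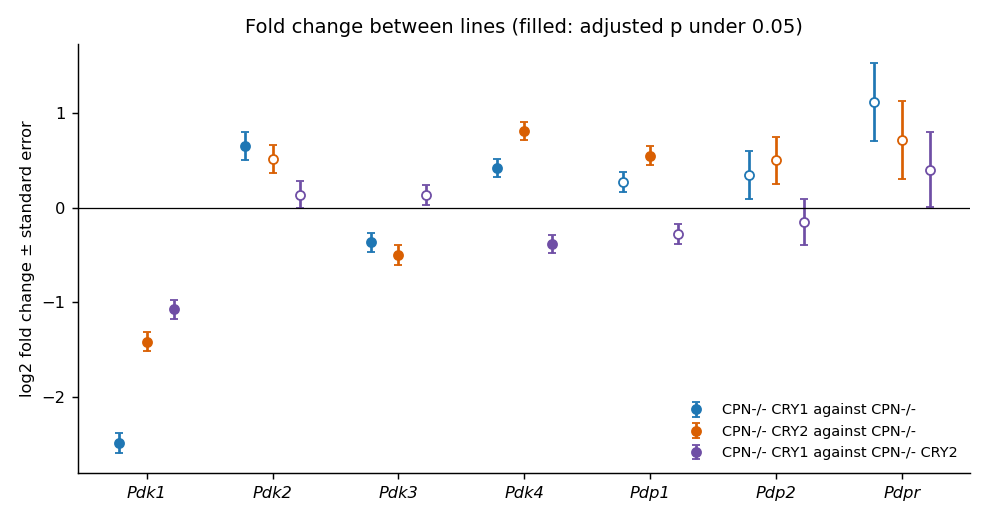
log2 fold change with its standard error (y axis) of the 7 genes (x axis) in the 3 comparisons, from the edgeR fit to all 6 libraries, with filled points at an adjusted p under 0.05. Pdk1 is at -2.49, -1.42 and -1.07, Pdk4 is above 0 against CPN-/- and below 0 for CPN-/- CRY1 against CPN-/- CRY2, and Pdpr has the widest errors.

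To compare levels between genes, counts were divided by the length of the longest transcript (CPM per kilobase). In CPN-/- the order of the mean levels was Pdk3 (47.1), Pdk1 (31.0), Pdk4 (10.3), Pdp1 (4.53), Pdk2 (2.76), Pdpr (1.597) and Pdp2 (1.09), and only the libraries of Pdpr and Pdp2 overlapped as neighbours. In CPN-/- CRY1 Pdk3 (36.4) was followed by Pdk4 (13.8), and by Pdk1 (5.50) and Pdp1 (5.47), whose libraries overlapped. That overlap holds with this length, since Pdk1 was above Pdp1 in both libraries of CPN-/- CRY1 with raw counts (mean ratio 1.24) and with coding length (1.71). Pdk2 (4.31), Pdpr (3.497) and Pdp2 (1.40) came next. In CPN-/- CRY2 the order was Pdk3 (33.3), Pdk4 (18.1), Pdk1 (11.6), Pdp1 (6.64), Pdk2 (3.93), Pdpr (2.65) and Pdp2 (1.56), with no overlap between neighbours. The exchange of rank between Pdk1 and Pdk4 was therefore seen in both CRY lines on this scale.

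As a share of the summed kinase mRNA per kilobase, Pdk1 made up 34.8% and 33.3% in the libraries of CPN-/-, 9.54% and 8.77% in CPN-/- CRY1, with 16.9% and 17.7% in CPN-/- CRY2. Pdk4 made up 12.03% and 10.7% in CPN-/-, 22.6% and 23.5% in CPN-/- CRY1, with 27.2% and 26.9% in CPN-/- CRY2. Neither share overlapped between lines. The Pdk4 to Pdk1 ratio was 0.346 and 0.321 in CPN-/-, 2.36 and 2.68 in CPN-/- CRY1, with 1.61 and 1.51 in CPN-/- CRY2. On this scale Pdk1 was thus the more abundant of this pair in CPN-/- and Pdk4 in the CRY lines. For CPN-/- CRY2 the size of the gap rests on the length used. Without division by length, Pdk1 was at 56.8 and 63.3 CPM there and Pdk4 at 61.4 and 64.5 CPM, so that their ranges overlapped.

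Pdk3 was the most abundant kinase mRNA in every library on this scale, making up 50.1% and 53.1% in CPN-/-, 59.9% and 61.3% in CPN-/- CRY1, with 50.2% and 49.4% in CPN-/- CRY2. Its share was higher in CPN-/- CRY1 although its level was lower, as the kinase sum was lower still. Pdk2 made up the smallest share, 3.11% and 2.94% in CPN-/-, 7.97% and 6.39% in CPN-/- CRY1, with 5.75% and 5.99% in CPN-/- CRY2. The order of Pdk1 and Pdk3 in CPN-/- depends on the length used. With raw counts, or with coding length, Pdk1 had 53.1% or 52.0% of the kinase sum in CPN-/- and Pdk3 32.9% or 33.6%. Which transcripts of each gene these cells make was not examined. The shares are descriptions without a test.

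**Figure D4:**
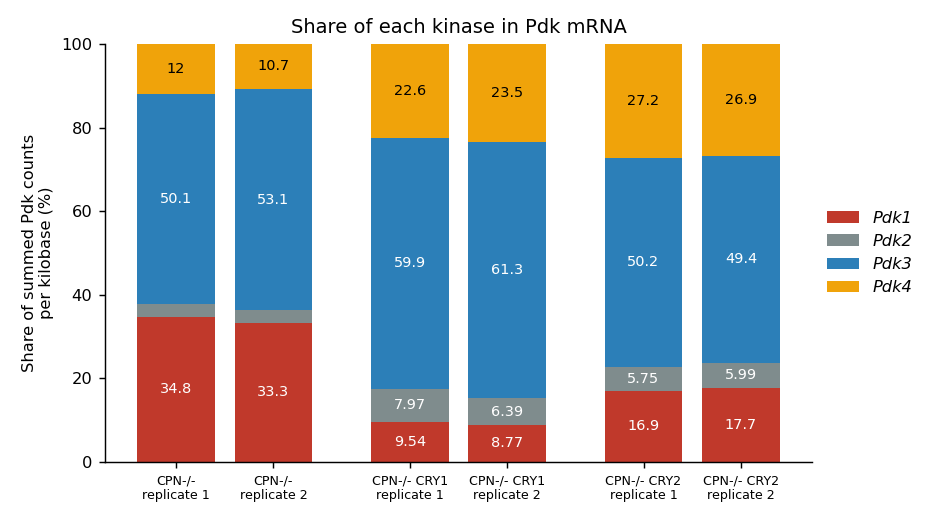
Share of each kinase gene in the summed Pdk counts per kilobase (%, y axis) in each of the 6 libraries (bars). The Pdk1 part shrinks from 34.8% and 33.3% in CPN-/- to 9.54% and 8.77% in CPN-/- CRY1, the Pdk4 part grows from 12.03% and 10.7% to 27.2% and 26.9% in CPN-/- CRY2, and Pdk3 is the tallest part in every bar.

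The summed kinase mRNA was 87.7 and 94.7 CPM per kilobase in CPN-/-, 59.4 and 60.8 in CPN-/- CRY1, with 64.9 and 68.9 in CPN-/- CRY2. The mean sum of CPN-/- CRY1 differed from that of CPN-/- by -31.1 CPM per kilobase, to which Pdk1 contributed -25.5, Pdk3 -10.7, Pdk2 1.55 and Pdk4 3.51. For CPN-/- CRY2 the difference was -24.3, from -19.4 for Pdk1, -13.8 for Pdk3, 1.17 for Pdk2 and 7.73 for Pdk4. Pdk1 was the largest part of both differences, and the Pdk4 gain was smaller than the Pdk3 loss. Without Pdk1, the sum of the other 3 kinases was 57.2 and 63.2 in CPN-/-, 53.7 and 55.5 in CPN-/- CRY1, with 53.9 and 56.7 in CPN-/- CRY2. The mean sums of CPN-/- CRY1 and CPN-/- CRY2 differed from that of CPN-/- by -9.29% and -8.14% on this scale, but by -4.81% and 0.27% with raw counts and by -4.69% and 0.45% with coding length, so that a lower sum in CPN-/- CRY2 rests on the transcript length used.

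The summed catalytic phosphatase mRNA (Pdp1 and Pdp2) was 6.05 and 5.20 CPM per kilobase in CPN-/-, 6.97 and 6.75 in CPN-/- CRY1, with 7.97 and 8.42 in CPN-/- CRY2. All libraries of the CRY lines were above both CPN-/- libraries, the reverse of the kinase sum. Pdp1 supplied between 76.8% and 85.0% of this sum in every library. The ratio of kinase to phosphatase mRNA was 14.5 and 18.2 in CPN-/- (16.3 ± 2.62, SD, n = 2), 8.52 and 9.003 in CPN-/- CRY1 (8.76 ± 0.34), with 8.14 and 8.18 in CPN-/- CRY2 (8.16 ± 0.03). The ratio was therefore lower in both CRY lines than in either CPN-/- library, and the mean ratios of the CRY1 and CRY2 lines were 0.536 and 0.499 times the CPN-/- mean. Kinase mRNA exceeded phosphatase mRNA in all 6 libraries. Without Pdk1 in the kinase sum the ratio was 9.46 and 12.1 in CPN-/-, 7.70 and 8.21 in CPN-/- CRY1, with 6.77 and 6.73 in CPN-/- CRY2, still lower in the CRY lines. Pdk1 alone stood at 5.04 and 6.05 times the phosphatase sum in CPN-/-, at 0.813 and 0.789 times in CPN-/- CRY1, and at 1.38 and 1.45 times in CPN-/- CRY2. The mean for CPN-/- CRY1 was 0.922 with raw counts and 1.23 with coding length, so that the order of Pdk1 and the phosphatases in this line depends on the length. With raw counts in place of counts per kilobase the mean ratio was 12.1, 5.29 and 5.50, so that the order of the CRY lines turned while both stayed below CPN-/-, as also with coding length or with Pdpr added to the phosphatases. Like the shares, the ratios have no test.

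**Figure D5:**
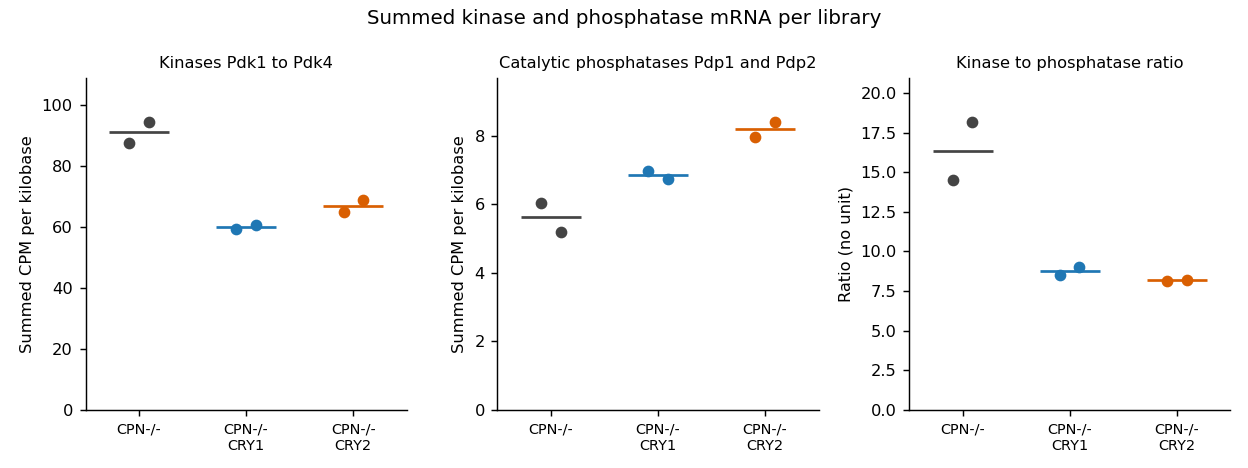
Summed CPM per kilobase of Pdk1 to Pdk4 (left), of Pdp1 and Pdp2 (middle) and their ratio (right) by cell line, with a point per library, a line at the mean of 2 and y axes from 0. The ratio is 14.5 and 18.2 in CPN-/- and between 8.14 and 9.003 in the CRY lines.

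The regulatory subunit gene Pdpr stood at 0.396 and 0.154 times the phosphatase sum in CPN-/-, at 0.515 and 0.504 times in CPN-/- CRY1, and at 0.311 and 0.335 times in CPN-/- CRY2. The CRY1 line was above the other lines in this ratio, and the CPN-/- libraries lay on both sides of those of the CRY2 line.

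The CRY lines were also compared with each other. Of the 7 genes, 2 passed the threshold, both lower in CPN-/- CRY1 than CPN-/- CRY2, where 16.3% of all tested genes passed (7.72% higher, 8.57% lower). Pdk1 was lower by 2.11-fold (log2 fold change -1.07 ± 0.10, edgeR adjusted p = 0.00112) and Pdk4 by 1.31-fold (log2 fold change -0.38 ± 0.10, edgeR adjusted p = 0.0368). The Pdk4 call was lost when any 1 of the 4 CRY-line libraries was left out, with log2 fold changes between -0.43 and -0.34 and an adjusted p of at most 0.306. Pdp1 was at a log2 fold change of -0.28 ± 0.10 (edgeR adjusted p = 0.113), and Pdk2, Pdk3, Pdp2 and Pdpr had adjusted p-values between 0.467 and 0.735. Pdp1 and Pdpr passed here with only the 4 libraries of the CRY lines in the fit (edgeR adjusted p = 0.00236 and 0.000488). That fit called 6838 genes over all, against 2292 in the main fit, so passing it does not set Pdp1 and Pdpr apart. Pdp1 also passed with the length trend removed (edgeR adjusted p = 0.0277), where 4311 genes were called. Omitting any 1 library gave log2 fold changes between -0.33 and -0.23 for Pdp1 and between 0.31 and 0.49 for Pdpr. The libraries did not overlap for 6 of the 7 genes, against 73.3% of all tested genes.

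The other genes of pyruvate oxidation were grouped by role. Of the 6 subunit genes of the complex, 5 were tested, and Pdha1, which encodes the E1 alpha subunit that the kinases phosphorylate, was called. It was at 286 and 297 CPM in CPN-/-, 376 and 382 CPM in CPN-/- CRY1 and 302 and 287 CPM in CPN-/- CRY2. CPN-/- CRY1 was above CPN-/- by 0.38 ± 0.09 on the log2 scale (edgeR adjusted p = 0.0283) and above CPN-/- CRY2 by 0.36 ± 0.09 (edgeR adjusted p = 0.0406, and 0.0686 with a term for the replicate number). Both calls were lost when any library of a CRY line was left out, with log2 fold changes between 0.35 and 0.41 and between 0.32 and 0.40. CPN-/- CRY1, the line with the least Pdk1, thus had the most Pdha1, and a link between them was not tested. In CPN-/- CRY2 against CPN-/- none of the 5 was called by edgeR or DESeq2 and none had an unadjusted p under 0.05 with edgeR, and Pdha2 had no counts. The 3 genes of pyruvate entry and carboxylation, Mpc1, Mpc2 and Pcx, were not called in any comparison by edgeR or DESeq2, with an unadjusted edgeR p under 0.05 for 1 of them in CPN-/- CRY1 against CPN-/-.

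Of 6 genes for lipoate and thiamine, cofactors of the complex, 5 were tested. In CPN-/- CRY1 against CPN-/-, the thiamine transporter gene Slc19a2 was higher (log2 fold change 0.51). In the other comparisons edgeR and DESeq2 called none of the 5, with an unadjusted edgeR p under 0.05 for 2 in CPN-/- CRY2 against CPN-/- and for 1 between the CRY lines. The branched-chain keto acid dehydrogenase is regulated by its own kinase and phosphatase, Bckdk and Ppm1k, in the same manner. All 5 genes of this group were tested. Its phosphatase gene Ppm1k (0.47) and its E1 subunit gene Bckdha (0.39) were higher in CPN-/- CRY1 than in CPN-/-, and its E2 subunit gene Dbt was higher in CPN-/- CRY2 (0.66) than in CPN-/-. Between the CRY lines, Dbt was lower in CPN-/- CRY1 (-0.87). Bckdk was not called in any comparison by edgeR. The list medians lay between -0.11 and 0.19 on the log2 scale for the cofactor genes and between -0.12 and 0.06 for the branched-chain genes.

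Of 15 genes for transcription factors described as regulators of Pdk genes, 12 were tested, and Ppara, Pparg and Epas1 were too low. Hif1a and Arnt, the subunits of the hypoxia-inducible factor, were not called against CPN-/- by edgeR, although DESeq2 called Hif1a lower in CPN-/- CRY1 (log2 fold change -0.41 and adjusted p = 0.0703 with edgeR, -0.40 and 0.0460 with DESeq2). When the CRY lines were compared, edgeR called both lower in CPN-/- CRY1 (log2 fold changes -0.52 and -0.54). Against CPN-/-, edgeR called 1 of the 12 in each CRY line, DESeq2 2 for CPN-/- CRY1 and 1 for CPN-/- CRY2, and an unadjusted edgeR p was under 0.05 for 6 and 4. Hif1a was at 370 and 282 CPM in CPN-/-, 244 and 247 CPM in CPN-/- CRY1 and 352 and 352 CPM in CPN-/- CRY2. In CPN-/- CRY1, Foxo1 was lower than in CPN-/- (-0.69) and CPN-/- CRY2 (-0.71), and Esrra, a nuclear receptor of oxidative metabolism, was lower in CPN-/- CRY2 than in CPN-/- (-0.59) and than in CPN-/- CRY1 (0.65 for CPN-/- CRY1 against CPN-/- CRY2).

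Pdk4 belongs to the genes induced by PPAR receptors, and 17 others of this kind were listed, of which 11 were tested. Cpt1a, the carnitine palmitoyltransferase of mitochondrial fatty acid entry, was at 44.5 and 33.5 CPM in CPN-/-, 72.8 and 80.3 CPM in CPN-/- CRY1 and 40.6 and 39.0 CPM in CPN-/- CRY2. It was higher in CPN-/- CRY1 than in CPN-/- (log2 fold change 0.97 ± 0.15, edgeR adjusted p = 0.00583) and than in CPN-/- CRY2 (0.94 ± 0.15, edgeR adjusted p = 0.00768). Fabp4, a fatty acid binding protein, was lower than in CPN-/- in CPN-/- CRY1 (-3.93) and in CPN-/- CRY2 (-2.30), and lower in the former than in the latter (-1.64). The other 9 tested genes were not called in any comparison by edgeR or DESeq2. The list median was between -0.17 and 0.12. Of the 18 calls in these lists, 2 (Fabp4 against CPN-/- in both CRY lines) were kept under all alternatives, and between 14 and 16 were lost when a library of a CRY line was left out.

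The genes whose profile over the 6 libraries was nearest to that of each called member were sought among the 11409 genes that averaged 100 counts or more per library, by the Euclidean distance between mean-centred log2 CPM. For Pdk1 they were Dbp (distance 0.337), Xdh (0.392) and Bhlhe40 (0.395). Dbp and Bhlhe40 are clock output genes and Xdh encodes xanthine dehydrogenase, and their log2 fold changes against CPN-/- ranged from -2.68 to -2.22 for CPN-/- CRY1 and from -1.34 to -1.15 for CPN-/- CRY2. For Pdk4 the nearest genes were Fbln5 (0.178), Arhgap18 (0.180) and Rgl1 (0.222), for Pdk3 Pop4 (0.0791), H2aj (0.0817) and Uap1 (0.0908), for Pdk2 Ppp1r3d (0.0924), Wdr5b (0.166) and Aox1 (0.190), and for Pdp1 Slc3a1 (0.105), Kcnab2 (0.135) and Gm16907 (0.144). The distances for Pdk1 were the largest of the 5 members searched, but the distance is not scaled to the size of a gene's changes, which were largest for Pdk1. The nearest genes were picked from these same libraries, so their like fold changes are no separate result. No gene of the family was among the 3 nearest of another, with only 3 listed of the 11409 genes searched.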

How the data were processed

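mRNA was measured in 6 libraries from 3 MEF lines, with between 25957409 and 36106949 counts per library. For the deposited tables, the authors aligned paired-end reads of stranded libraries to mm10 with RNA STAR, followed by featureCounts. The deposited counts are whole reads per gene for 27179 NCBI Gene identifiers, without normalization. The annotation, the strand setting and the handling of reads with several matches are not given in the sources used here.

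R 4.3.3 and edgeR 4.0.16 were used. Default filterByExpr settings (at least 10 counts at median depth and 15 overall) kept 14069 genes. A quasi-likelihood model with the line as its only term with TMM scaling was fitted to the 6 libraries together. The 3 comparisons of lines were tested two-sided, and a gene was called where its p, adjusted by Benjamini-Hochberg across the 14069 genes, was under 0.05. Standard errors were derived from the F statistic and the log2 fold change. The steps were tested on simulated data in which all lines had the same spread, which does not cover the wider spread of CPN-/-. Levels between genes were counts per kilobase of the longest GENCODE transcript. Nearly identical transcripts were sought with BLAST+ 2.17.0, and symbols, positions and promoters came from RefSeq.

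The 7 genes, the pathway lists and the markers were chosen with earlier results of these data known. 1 gene of the cofactor list is not reported here and was left out of its counts. Named were the 7 genes, list genes called in at least 1 comparison, the 3 nearest profiles of each called member, and the clock genes that check the lines. Alternatives were 3 other normalizations, 2 other filters, the Wald test of DESeq2 1.42.0, only the 4 libraries of a comparison, a term for the replicate number, removal of the trend with transcript length (loess, span 0.5), an adjusted p under 0.01 and each library left out. Outlier tests need more than 2 libraries per line and were not run.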

Additional observations from a re-analysis of the deposited data

How the results depend on the processing

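Pdk1 kept its direction and its call under all 16 alternatives in each of the 3 comparisons. Of the 10 calls of the 7 genes, all were kept with other normalizations, other filters, DESeq2's Wald test or the length trend removed. A call with a library left out depends on the spread of the lines that still have 2 libraries. That spread was widest in CPN-/- (SD over genes 0.435, against 0.232 and 0.245 in the CRY lines). Leaving out a CPN-/- library is therefore no check of a call. With only the 4 libraries of a comparison 5 were lost, without either CPN-/- CRY1 library 6, and without either CPN-/- CRY2 library 7. The number of the 7 genes called in CPN-/- CRY1 against CPN-/- went from 4 to 1 with only 4 libraries and to 1 at an adjusted p under 0.01, and lay between 1 and 7 with a library left out. In CPN-/- CRY2 against CPN-/- it went from 4 to 2 and to 2, and lay between 1 and 7. In CPN-/- CRY1 against CPN-/- CRY2 it went from 2 to 4 and to 1, and lay between 1 and 4. Over all genes, the calls in these comparisons were 3423, 937 and 2292. They became 1798, 473 and 6838 with only 4 libraries, 5363, 2102 and 4311 with the length trend removed, and 1184, 363 and 854 at an adjusted p under 0.01. At least 10 counts in every library left 583 in CPN-/- CRY2 against CPN-/-. With a library left out they lay between 663 and 8980, 199 and 8046, and 475 and 6897, and a line with 1 library is then assumed to vary like the others. The highest counts of the first and second comparison came without CPN-/- replicate 1. The cause was not tested.

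A term for the replicate number (replicate block) gave 3458, 977 and 2188 calls and, of the 7 genes, 5, 4 and 1, since Pdk4 lost its call between the CRY lines and Pdpr gained one in CPN-/- CRY1. Of the 18 calls in the pathway lists it lost 2, Pdha1 between the CRY lines (adjusted p = 0.0686) and Bckdha in CPN-/- CRY1 (0.0593). DESeq2 also called Pdpr in CPN-/- CRY1. The labels do not say whether the numbers pair the libraries. Differences between replicates 1 and 2 correlated at -0.0791, 0.141 and -0.0296 between lines across genes. Pdk2 in CPN-/- CRY1 against CPN-/- CRY2, not called, turned: its log2 fold change lay between -0.016 (without CPN-/- CRY1 replicate 1) and 0.27 with a library left out.

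Shares and ratios moved with the length used. In CPN-/-, CPN-/- CRY1 and CPN-/- CRY2, raw counts gave Pdk1 53.1%, 17.4% and 29.7% of kinase mRNA, Pdk2 2.05%, 5.92% and 4.36%, and Pdk3 32.9%, 47.1% and 34.8%, with Pdk4 at 29.5% and 31.1% in the CRY lines. Coding length gave Pdk1 52.0%, 16.8% and 28.7%, Pdk3 33.6%, 47.3% and 35.2%, Pdk2 2.14% in CPN-/- and 4.49% in CPN-/- CRY2, and Pdk4 29.8% and 31.7% in the CRY lines. The kinase to phosphatase ratio was 12.1, 5.29 and 5.50 with raw counts, 7.35 and 7.62 in the CRY lines with coding length, 13.1, 5.80 and 6.17 with Pdpr added to the phosphatases, and 10.8, 7.96 and 6.75 without Pdk1. Under each it was lower in both CRY lines than in CPN-/-. Other lengths for the sum without Pdk1 and for the ratios of Pdk1 to the phosphatases and to Pdp1 were chosen after seeing the data. Levels in CPM moved by less than 1 SD with DESeq2's size factors. Counts between 103 and 641 per library limit Pdk2, Pdp2 and Pdpr.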
